A study of Homo sapiens with 9 samples.

Results

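The genes described here are the transcriptional repressors of the circadian clock: the period genes PER1, PER2 and PER3, the cryptochrome genes CRY1 and CRY2, CIART (the circadian associated repressor of transcription, also called CHRONO), and the basic helix-loop-helix (bHLH) genes BHLHE40 and BHLHE41. The 8 genes were chosen by name, and each was found once by its versioned Ensembl identifier among the 58721 genes counted, the identifiers matching GENCODE release 29 (GRCh38). All 8 passed the filter on low counts and are among the 16441 genes tested. The study sequenced total RNA of H1299, a human lung carcinoma cell line that is in long use as a model of non-small cell lung cancer. All groups were H1299 cells: the control group was kept in serum free medium, the siCLOCK group was given small interfering RNA against CLOCK, and the melatonin group was given 0.1 mM melatonin. Each group had 3 libraries. No non-targeting siRNA, time of harvest or clock phase is given in the labels, and they do not say whether the treated cells were also in serum free medium, so a difference in a rhythmic gene cannot be told apart from a difference in phase. The title of the series names circadian rhythm dysfunction as its setting.

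In the mammalian clock, the activators CLOCK and ARNTL (BMAL1) pair up and bind the E-box, a short DNA word in control regions of many clock genes. The period and cryptochrome proteins then gather in the nucleus and silence the pair that made them, CIART binds the same activators, and BHLHE40 and BHLHE41 compete for the E-box itself. Their levels also follow other inputs, such as cyclic AMP for PER1 and low oxygen for BHLHE40.

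The sequences that tie these genes to the clock are shown because both treatments are aimed at that loop. RefSeq promoter windows of 300 bases (250 before and 50 after an annotated start, GRCh38.p14) matched all 8 genes, with 2 windows each for PER3 and CRY2. They were searched on both strands for the E-box CACGTG, its variant CACGTT (the E'-box), the D-box words TTATGTAA and TTACGTAA bound by DBP and its relatives, and the cyclic AMP response element TGACGTCA. No match shared bases with another. Each line gives a match in capitals with its flanking bases, 5′ to 3′ on the gene's own strand, and the position of its first base relative to the RefSeq start follows in the next sentences.
PER1 E-box, chr17:8152560-8152589, minus strand: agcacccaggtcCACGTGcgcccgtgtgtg
BHLHE40 E-box, chr3:4979187-4979209, plus strand: tccaaCACGTGagactcatgtga
BHLHE41 E-box, chr12:26125068-26125097, minus strand: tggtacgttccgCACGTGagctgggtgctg
PER2 E'-box, chr2:238288790-238288819, minus strand: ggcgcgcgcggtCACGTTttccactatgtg
CRY1 E'-box (reverse complement), chr12:107093621-107093650, minus strand: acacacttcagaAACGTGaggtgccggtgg
CRY2 E'-box (reverse complement), chr11:45847275-45847304, plus strand: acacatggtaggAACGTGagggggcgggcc
PER2 D-box, chr2:238288595-238288624, minus strand: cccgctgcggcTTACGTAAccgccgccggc

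The E-box was found in 4 of the 8 genes, at -173 in PER1, -245 in BHLHE40 and -48 in BHLHE41, and in 3 copies in CIART. Over all 35116 windows of the same length, 7.26% held at least 1 E-box and 0.664% held 2 or more. The E'-box was found at -197 in PER2, -89 in CRY1 and -188 in 1 of the CRY2 windows, against 5.34% of all windows. PER2 also held a D-box at -3, and PER3 held a D-box at -177 but neither E-box word, against 1.01% of all windows with a D-box. By GENCODE the matches in PER1, CIART and PER3 and the PER2 E'-box lie outside exons, and those in BHLHE40, BHLHE41, CRY1 and CRY2 and the PER2 D-box lie in or reach an exon of the gene itself. None of the 8 genes held TGACGTCA in these windows, a word found in 1.85% of all. The 239 bases of the CIART window that lie before its first annotated exon are printed because they carry all 3 E-boxes, with starts 58 and 14 bases apart, and the 250 bases before the upstream PER3 start are printed because PER3 is the gene with the smallest p in the melatonin comparison and lacks the E-box words here.
CIART, chr1:150282304-150282542, plus strand: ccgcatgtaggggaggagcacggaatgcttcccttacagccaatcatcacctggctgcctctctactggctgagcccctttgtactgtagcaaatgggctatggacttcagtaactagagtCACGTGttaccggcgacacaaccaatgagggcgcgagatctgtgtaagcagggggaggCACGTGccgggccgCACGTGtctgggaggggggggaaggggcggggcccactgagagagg
PER3, chr1:7784041-7784290, plus strand: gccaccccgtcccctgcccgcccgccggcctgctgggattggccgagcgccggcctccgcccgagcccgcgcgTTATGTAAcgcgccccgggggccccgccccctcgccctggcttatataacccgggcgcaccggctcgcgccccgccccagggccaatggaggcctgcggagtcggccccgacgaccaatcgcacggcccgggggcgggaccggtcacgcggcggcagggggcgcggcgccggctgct

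Counts assigned to genes ran from 15384539 to 19192962 per library. The siRNA target, CLOCK, stood at 95.9%, 94.9% and 109% of the control mean in the control libraries, and at 51.5%, 78.7% and 93.8% in siCLOCK replicates 1, 2 and 3. In the library labelled siCLOCK replicate 3 the target was thus just below the lowest control. The log2 fold change of CLOCK over the group, -0.42, did not pass (adjusted p = 0.340; exact permutation p = 0.1, the smallest that 3 against 3 libraries allow). In melatonin CLOCK stood at 95.9% to 102% of the control mean. That same library shares a technical feature with the melatonin libraries: unmapped reads were 2.24% to 2.34% of reads in these 4 and 1.22% to 1.36% in the other 5. The melatonin comparison with control thus runs across this division. For PER3, CRY1 and BHLHE40, values for the library labelled siCLOCK replicate 3 are given beside it. Transcripts of vimentin (VIM, group means 1503 to 1865 CPM) and of the keratins KRT8 and KRT18 were abundant, and summed leukocyte and erythroid markers stayed at or under 0.378 and 0.112 CPM in every library. Summed fibroblast markers were at 2.29 to 3.61 CPM and summed endothelial markers at 2.02 to 4.36 CPM. All 3 of these line markers fell in melatonin (list median -0.31), and their part in the melatonin results was not tested. In RNA from whole cultures, fewer cells of a kind and less RNA per cell cannot be told apart.

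Levels are CPM, the counts scaled to library size with TMM factors, and levels of different genes are compared per kilobase (kb) of annotated exon. Averaged over 9 libraries, BHLHE41 was the most abundant at 8.20 CPM per kb, followed by CRY1 at 6.51, PER1 at 5.87, BHLHE40 at 3.81, CIART at 2.79, PER3 at 1.41, CRY2 at 1.31 and PER2 at 0.569 CPM per kb. In control libraries, CRY1 and PER1 overlapped in level per kb, as did PER1 and BHLHE40, while every other neighbouring pair in this order was separated in all 3 libraries. Under melatonin PER1 stood above CRY1 without overlap between libraries. CRY2 also stood above PER3 there, but only when all exon bases are counted: per kb of exon not shared with another gene, PER3 was at 1.44 to 1.46 CPM and CRY2 at 1.30 to 1.52 in the melatonin libraries, with PER3 higher in the mean (1.45 against 1.38). In siCLOCK, CRY2 and PER3 overlapped, as did BHLHE41 and CRY1. Within each family 1 gene dominated per kb: in control, PER1 made up 73.1% ± 2.31 (SD, n = 3) of the period genes, CRY1 85.8% ± 1.60 of the cryptochromes and BHLHE41 62.9% ± 5.59 of the bHLH pair.

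**Figure D1:**
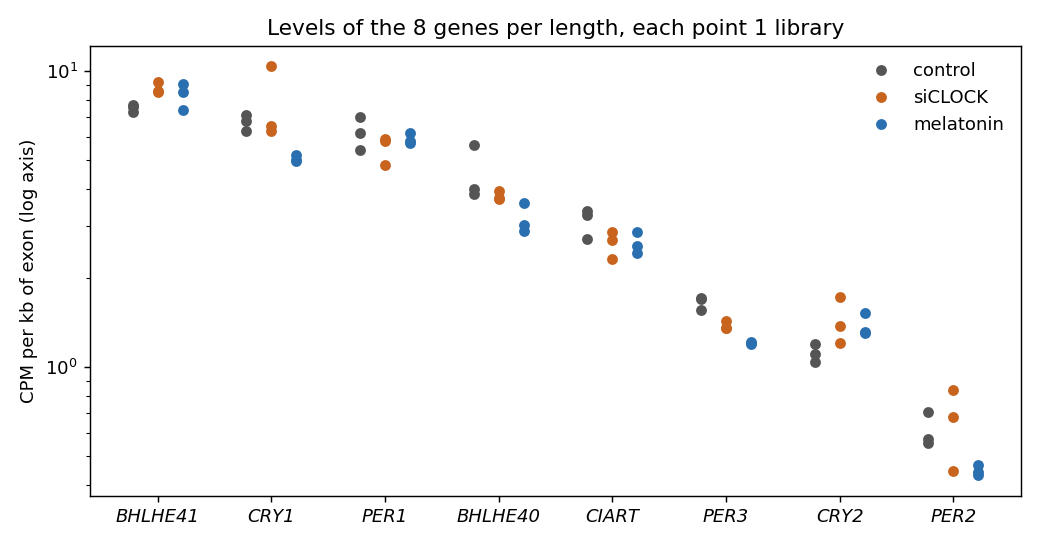
Level of each gene in CPM per kb of exon on a log axis, 1 point per library, coloured by group, genes ordered by their mean over the 9 libraries. BHLHE41 is highest at a mean of 8.20 and PER2 lowest at 0.569. CRY2 lies below PER3 in control, and its place above PER3 under melatonin does not hold per kb of unshared exon.

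The PER3 level depends on how reads in overlapping exons are counted. Of its 8099 exon bases, 1350 (16.7%) lie in exons of the antisense gene UTS2, which encodes the peptide urotensin, or of another antisense transcript, and reads there are ambiguous when strand is ignored. Summing the 2 strand-specific columns gave 1.42 to 1.60 times as many PER3 reads, and UTS2 itself had 0 reads in the unstranded column of every library. That sum counts overlap reads for PER3 whichever gene they came from, and their source was not tested. Per kb of exon not shared with another gene, PER3 averaged 1.70 CPM. BHLHE41, 4.10% of whose exon bases lie in exons of SSPN, gained a factor of 1.11 to 1.20 in the same way, and no other member gained more than a factor of 1.15. The depth behind PER2 is the thinnest: its counts ran from 47 to 106 per library, and for the lowest, 2.96 CPM, the 95% Wilson interval was 2.23 to 3.94 CPM, whereas the 923 PER1 counts of control replicate 1 gave 49.0 CPM with an interval of 45.9 to 52.2. Such intervals cover counting error only.

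The first comparison asks how lowering CLOCK by siRNA changed the genes it drives. In siCLOCK against control none of the 8 genes passed at an adjusted p under 0.05 with edgeR's quasi-likelihood test, where 0.122% of all genes did (0.0547% higher and 0.0669% lower). DESeq2 and limma-voom also called 0, DESeq2 giving an adjusted p for PER1, CRY1 and BHLHE41 only. The median log2 fold change of the 8 genes was -0.03 against 0.00 over all genes, and 4 lay on each side of 0. At an unadjusted p under 0.05 there were 3 genes, PER3 on the low side and CRY2 and BHLHE41 on the high side, against 8.24% of all genes. The same 3 genes were those whose siCLOCK and control libraries did not overlap, which held for 10.8% of all genes (5.75% higher and 5.06% lower). No member was called in any of the 22 alternative settings, leaving out each library in turn included.

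PER3 (ENSG00000049246.14, chromosome 1, 7784320 to 7845177, plus strand), a period gene whose loss leaves the core rhythm largely running, stood at 13.8, 12.7 and 13.7 CPM in control replicates 1 to 3 and at 11.6, 11.0 and 11.0 CPM in siCLOCK. All 3 siCLOCK libraries lay below all 3 controls, and the library labelled siCLOCK replicate 3, with little loss of CLOCK, was as low as replicate 2. The log2 fold change was -0.26 (SE 0.092, 95% interval -0.45 to -0.07, adjusted p = 0.393). PER1 (ENSG00000179094.15, chromosome 17, 8140472 to 8156506, minus strand), the period gene that responds fastest to external signals, stood at 49.0, 43.2 and 37.8 CPM in control and at 41.4, 40.8 and 33.8 CPM in siCLOCK. The groups overlapped, at a log2 fold change of -0.17 (95% interval -0.36 to 0.03, adjusted p = 0.712). PER2 (ENSG00000132326.11, chromosome 2, 238244038 to 238290102, minus strand), a scaffold of the repressor complex, stood at 4.83, 3.81 and 3.93 CPM in control and at 5.73, 3.06 and 4.67 CPM in siCLOCK. The siCLOCK libraries of PER2 spread over the whole control range and beyond on both sides, at a log2 fold change of 0.10 (95% interval -0.29 to 0.49), and without siCLOCK replicate 1 this was -0.11.

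CRY1 (ENSG00000008405.11, chromosome 12, 106991364 to 107093829, minus strand), the strongest cryptochrome repressor of CLOCK and ARNTL, stood at 34.5, 31.9 and 36.0 CPM in control and at 52.6, 32.9 and 31.7 CPM in siCLOCK. Only siCLOCK replicate 1, the library in which CLOCK was lowest, was high, at 154% of the control mean, while the other libraries were at 96.5% and 92.8%. The log2 fold change of 0.19 (95% interval -0.09 to 0.47, adjusted p = 0.781) became -0.08 without that library. CRY2 (ENSG00000121671.11, chromosome 11, 45847118 to 45883248, plus strand), the second cryptochrome, stood at 6.85, 7.41 and 6.45 CPM in control and at 10.7, 8.54 and 7.50 CPM in siCLOCK, or 155%, 124% and 109% of the control mean. All siCLOCK libraries lay above all controls, replicate 3 by a margin within the counting error. CRY2 had the largest log2 fold change of the 8 genes in this comparison, 0.37 (SE 0.13, 95% interval 0.09 to 0.64, adjusted p = 0.416), and 0.21 without siCLOCK replicate 1 and 0.47 without the library labelled siCLOCK replicate 3 (adjusted p = 0.117).

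CIART (ENSG00000159208.15, chromosome 1, 150282543 to 150287093, plus strand), with its 3 E-boxes, stood at 9.07, 8.84 and 7.29 CPM in control and at 7.74, 7.25 and 6.24 CPM in siCLOCK. The groups overlapped. The lowest siCLOCK value was in the library labelled siCLOCK replicate 3, whereas CLOCK was lowest in replicate 1. Replicate 3 is also the only siCLOCK library with the higher unmapped share, so CLOCK level and technical set cannot be told apart there. The log2 fold change was -0.25 (95% interval -0.51 to 0.01, adjusted p = 0.636). BHLHE40 (ENSG00000134107.4, chromosome 3, 4979116 to 4985323, plus strand), a bHLH repressor induced by many stimuli, stood at 21.5, 14.8 and 15.3 CPM in control and at 14.3, 15.2 and 14.2 CPM in siCLOCK. Control replicate 1 was the only high library, and without it the log2 fold change went from -0.24 (adjusted p = 0.651) to -0.05. BHLHE41 (ENSG00000123095.5, chromosome 12, 26120026 to 26125127, minus strand), its paralog, stood at 28.8, 30.4 and 29.9 CPM in control and at 36.3, 33.9 and 33.7 CPM in siCLOCK. All siCLOCK libraries lay above all controls, at a log2 fold change of 0.22 (SE 0.083, 95% interval 0.05 to 0.39, adjusted p = 0.435), which ran from 0.19 to 0.24 as libraries were left out.

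**Figure D2:**
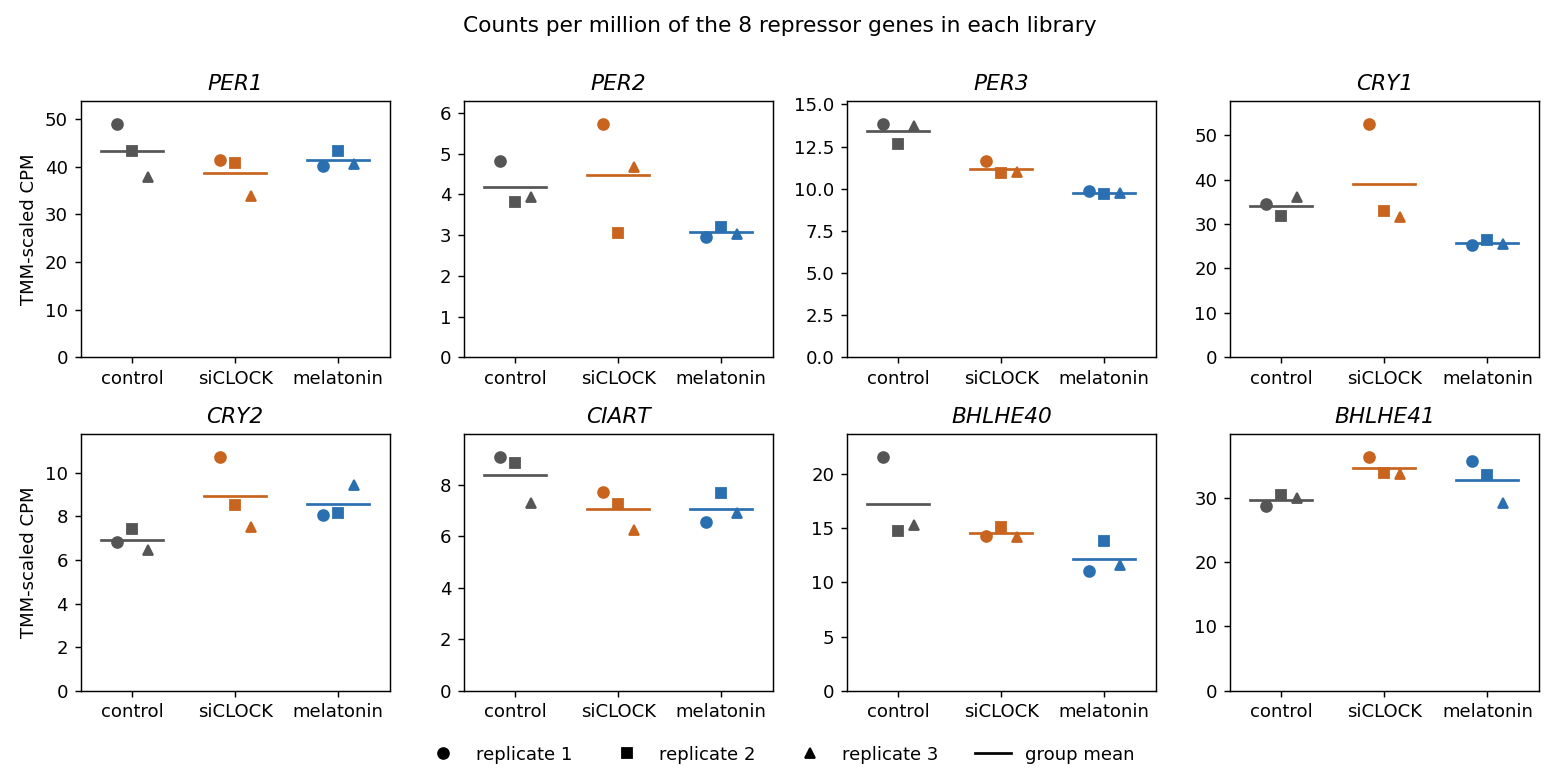
TMM-scaled CPM of each of the 8 genes in the 9 libraries, each panel from 0 on its own scale, the marker shape giving the replicate number and the line the group mean. siCLOCK replicate 1 is the highest library for 4 genes and control replicate 1 for the other 4, and the melatonin points of PER3, CRY1 and BHLHE40 lie below all their control points.

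The highest values lay in 2 libraries: siCLOCK replicate 1 was the highest of the 9 libraries for PER2, CRY1, CRY2 and BHLHE41, and control replicate 1 was the highest for PER1, PER3, CIART and BHLHE40. In the former CLOCK was at 51.5% of the control mean. Whether the level of CLOCK bears on these values was not tested, since 1 library carries it.

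The second comparison asks how the same genes differed between the melatonin and control groups. In melatonin against control, PER3, CRY1 and BHLHE40 fell and none of the 8 genes rose, where 23.1% of all genes were called, 12.1% lower and 11.0% higher. The other 5 genes did not pass. The median log2 fold change of the 8 genes was -0.33 against 0.01 over all genes, 6 lying below 0 and 2 above. For 5 of the 8 genes melatonin and control libraries did not overlap, PER2, PER3, CRY1 and BHLHE40 being lower and CRY2 higher, which held for 43.4% of all genes (21.9% higher and 21.4% lower). This comparison uses the same control libraries as the first, so the values of the 2 are not independent. With a term for the division by unmapped reads none of the 8 genes was called in either direction, while 283 genes were called higher and 487 lower of all. Only the siCLOCK group has libraries on both sides of the division, so by construction this fit sets melatonin against the library labelled siCLOCK replicate 3 and adds the difference of siCLOCK replicates 1 and 2 from control.

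PER3 stood at 9.84, 9.71 and 9.75 CPM in melatonin replicates 1 to 3, below every control library (12.7 to 13.8 CPM) and every siCLOCK library (11.0 to 11.6 CPM). The mean fell from 13.4 CPM ± 0.665 (SD, n = 3) to 9.77 ± 0.0631, a log2 fold change of -0.46 (SE 0.094, 95% interval -0.65 to -0.26, adjusted p = 0.00176). The call was kept in 21 of 22 alternatives, among them the summed strand columns, which also count the overlap reads (-0.49, adjusted p = 4.06e-04). It was lost with the unmapped-read term at a like value (-0.42, adjusted p = 0.186). The library labelled siCLOCK replicate 3, of the same technical set, was at 11.0 CPM, and the melatonin mean lay 0.17 below it on the log2 scale.

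CRY1 stood at 25.2, 26.5 and 25.4 CPM in melatonin, below all 6 other libraries (31.7 to 52.6 CPM). The mean fell from 34.1 CPM ± 2.07 (SD, n = 3) to 25.7 ± 0.662, a log2 fold change of -0.41 (SE 0.14, 95% interval -0.70 to -0.12, adjusted p = 0.0389). This call is close to the threshold: it ended without any 1 of the control or melatonin libraries (log2 fold change -0.46 to -0.37, adjusted p between 0.0649 and 0.113), with DESeq2 (adjusted p = 0.149) and with the first-strand counts (adjusted p = 0.0572). Without siCLOCK replicate 1 the value was -0.41 with an adjusted p of 2.39e-04. With the unmapped-read term the value was 0.02 (adjusted p = 0.971), and siCLOCK replicates 1 and 2 together stood 0.32 above control on the log2 scale. The library labelled siCLOCK replicate 3 was at 31.7 CPM, and the melatonin mean lay 0.30 below it.

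BHLHE40 stood at 11.0, 13.8 and 11.6 CPM in melatonin, below all controls (14.8 to 21.5 CPM) and all siCLOCK libraries (14.2 to 15.2 CPM). The mean fell from 17.2 CPM ± 3.77 (SD, n = 3) to 12.1 ± 1.46, a log2 fold change of -0.50 (SE 0.13, 95% interval -0.77 to -0.23, adjusted p = 0.00866). The size rests in part on control replicate 1, the high library: without it the value was -0.30 (adjusted p = 0.0752). With the unmapped-read term it was -0.44 (adjusted p = 0.291), and the melatonin mean lay 0.22 below the library labelled siCLOCK replicate 3. Its paralog BHLHE41 stood at 35.8, 33.5 and 29.1 CPM in melatonin, overlapping the controls, at a log2 fold change of 0.14 (95% interval -0.03 to 0.32, adjusted p = 0.241).

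PER2 stood at 2.96, 3.20 and 3.04 CPM in melatonin, below all controls, and siCLOCK replicate 2 was as low at 3.06 CPM. Its log2 fold change of -0.45 was as large as that of PER3, but at a depth of 47 to 62 counts its SE was 0.20 and it did not pass (95% interval -0.86 to -0.03, adjusted p = 0.112). Fitted to only the 6 libraries compared it passed at -0.45 (adjusted p = 0.0257), and with first-strand counts it was -0.14 (adjusted p = 0.687). CRY2 stood at 8.07, 8.16 and 9.43 CPM in melatonin, above all controls, at a log2 fold change of 0.31 (95% interval 0.03 to 0.59, adjusted p = 0.103). It passed in the fit of 6 libraries (0.31, adjusted p = 0.0368) and without siCLOCK replicate 1 (0.31, adjusted p = 0.0487). With the unmapped-read term it was 0.67 (adjusted p = 0.0774).

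PER1 stood at 40.0, 43.3 and 40.5 CPM in melatonin, inside the control range of 37.8 to 49.0 CPM. Its log2 fold change was -0.07 (95% interval -0.27 to 0.13, adjusted p = 0.641), an interval that does not reach the -0.46 estimated for PER3; the difference between the 2 genes was not tested. CIART stood at 6.56, 7.70 and 6.93 CPM in melatonin, overlapping both other groups, at a log2 fold change of -0.25 (95% interval -0.51 to 0.01, adjusted p = 0.164).

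**Figure D3:**
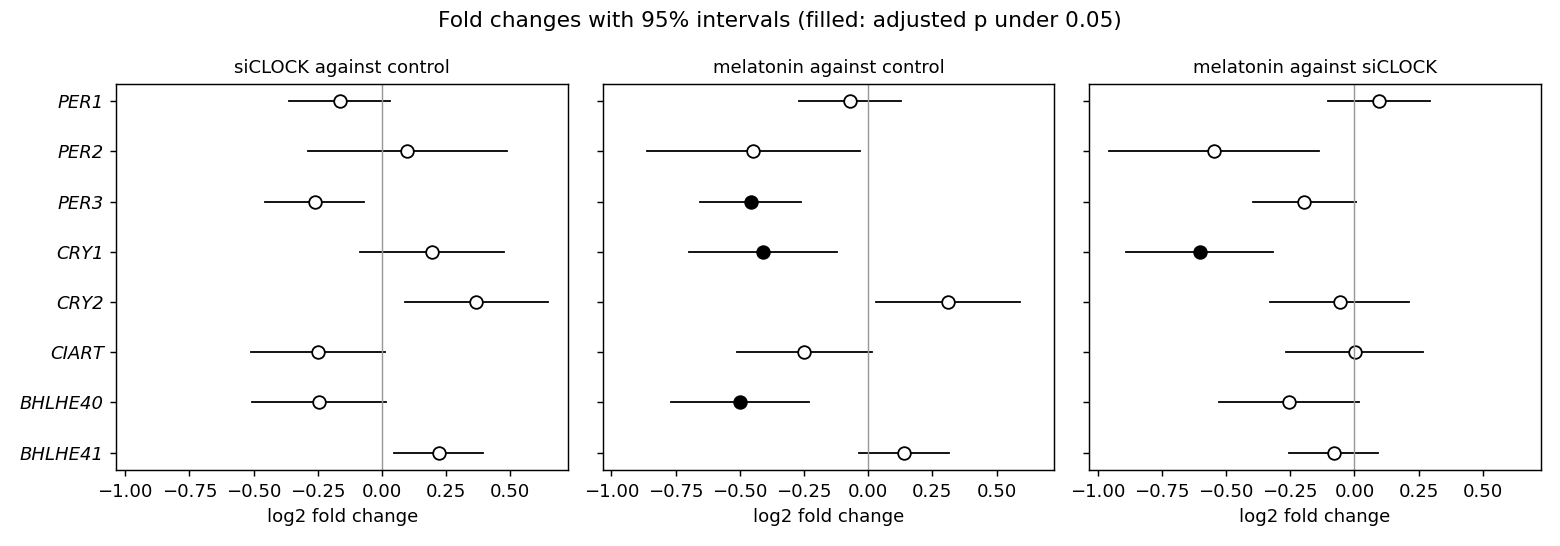
Log2 fold change of each gene with its 95% interval in the 3 comparisons, filled points having an adjusted p under 0.05. PER3, CRY1 and BHLHE40 are filled in melatonin against control and CRY1 alone in melatonin against siCLOCK, and PER2 has the widest intervals.

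**Figure D4:**
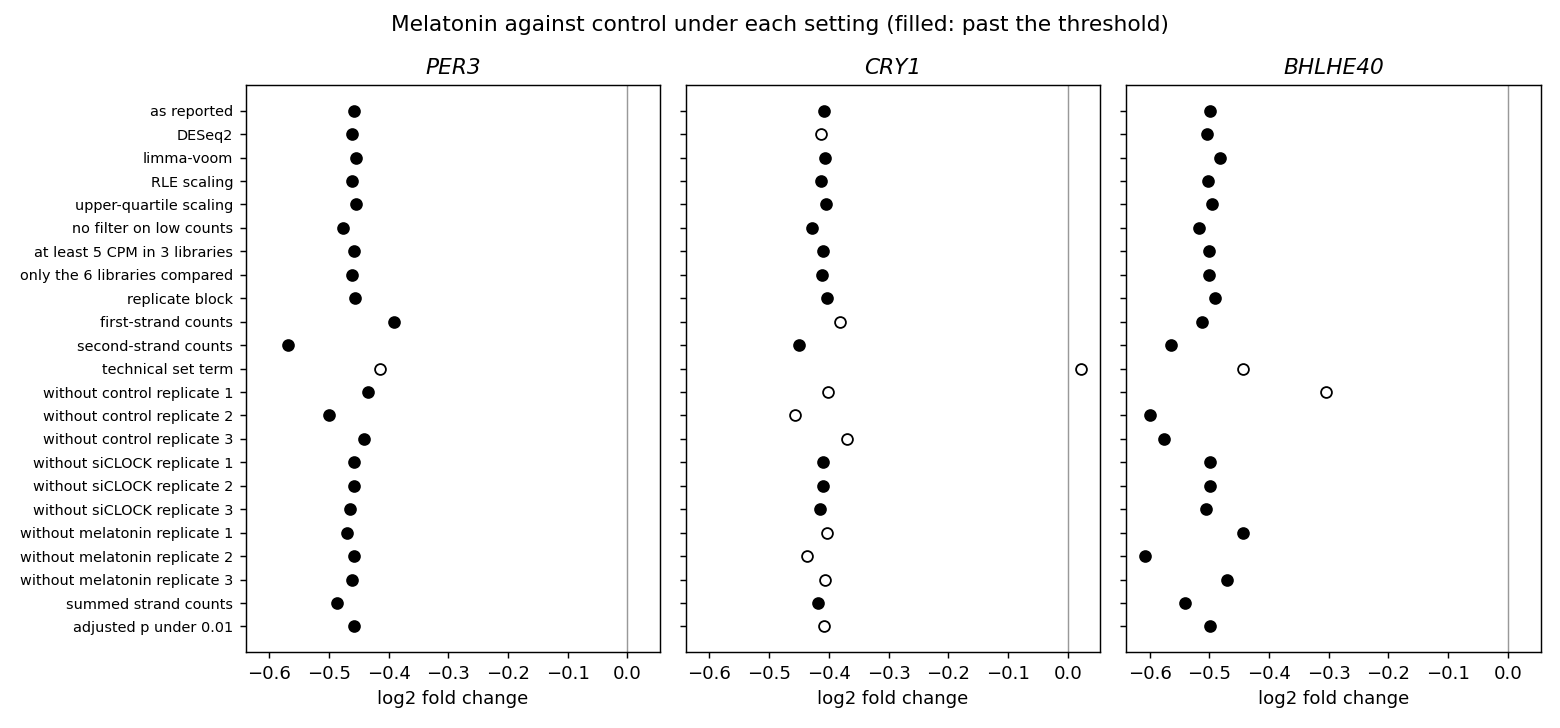
Log2 fold change of PER3, CRY1 and BHLHE40 in melatonin against control under each setting, filled where past the threshold of that setting. PER3 is filled in 21 of the 22 alternatives and BHLHE40 in 20, while CRY1 is open in many and close to 0 with the unmapped-read term (technical set term on the axis).

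In melatonin against siCLOCK, CRY1 was the only member called, with a log2 fold change of -0.60 (SE 0.14, 95% interval -0.89 to -0.32, adjusted p = 0.00535), where 17.5% of all genes were called, 10.1% lower and 7.43% higher. Without siCLOCK replicate 1 it was -0.33 (adjusted p = 0.00937), and with the unmapped-read term -0.30 (adjusted p = 0.311). Since CLOCK itself was uneven over the siCLOCK libraries, this value compares the 2 groups as labelled. PER2 had a log2 fold change of -0.55 (95% interval -0.95 to -0.14, adjusted p = 0.0605), which passed without siCLOCK replicate 2 (-0.76, adjusted p = 0.00659) and with no filter on low counts (-0.56, adjusted p = 0.0157). PER3 stood at -0.20 (95% interval -0.40 to 0.0045, adjusted p = 0.169) and BHLHE40 at -0.25 (95% interval -0.53 to 0.02, adjusted p = 0.192), both with melatonin libraries below every siCLOCK library. In all, 3 members did not overlap between these groups, CRY1, PER3 and BHLHE40, against 34.2% of all genes (17.4% lower and 16.8% higher). CRY2 (-0.06), CIART (0.0012), BHLHE41 (-0.08) and PER1 (0.10) also had intervals spanning 0.

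Ratios of 2 genes within a library do not depend on how libraries are scaled to each other. The ratio of CRY1 to CRY2 counts was 5.04, 4.31 and 5.58 in control, 4.91, 3.86 and 4.22 in siCLOCK, and 3.13, 3.24 and 2.69 in melatonin. All melatonin libraries lay below all 6 others, and the mean log2 ratio differed by -0.72 from control (exact permutation p = 0.1, adjusted p = 0.15). The library labelled siCLOCK replicate 3, at 4.22, lay within the siCLOCK range, below every control and above every melatonin library. CRY2 made up 14.2% ± 1.60 (SD, n = 3) of the cryptochrome level per kb in control and 21.4% ± 1.66 in melatonin.

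The ratio of BHLHE40 to BHLHE41 counts was 0.749, 0.485 and 0.512 in control, 0.393, 0.448 and 0.421 in siCLOCK, and 0.309, 0.412 and 0.399 in melatonin. Both treated groups lay below all controls, at mean log2 differences of -0.44 for siCLOCK and -0.63 for melatonin (exact permutation p = 0.1 and adjusted p = 0.15 for each). Without control replicate 1 the siCLOCK difference was -0.25. The ratio of PER1 to PER2 was 10.1, 11.3 and 9.63 in control, 7.22, 13.3 and 7.25 in siCLOCK, and 13.5, 13.5 and 13.4 in melatonin. Melatonin lay above all controls by 0.38 on the log2 scale (exact permutation p = 0.1, adjusted p = 0.15), and siCLOCK replicate 2 was close to the melatonin libraries. With first-strand counts that difference was 0.09. These were 9 tests in all, with either direction counted, none of which can go below a raw p of 0.1.

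**Figure D5:**
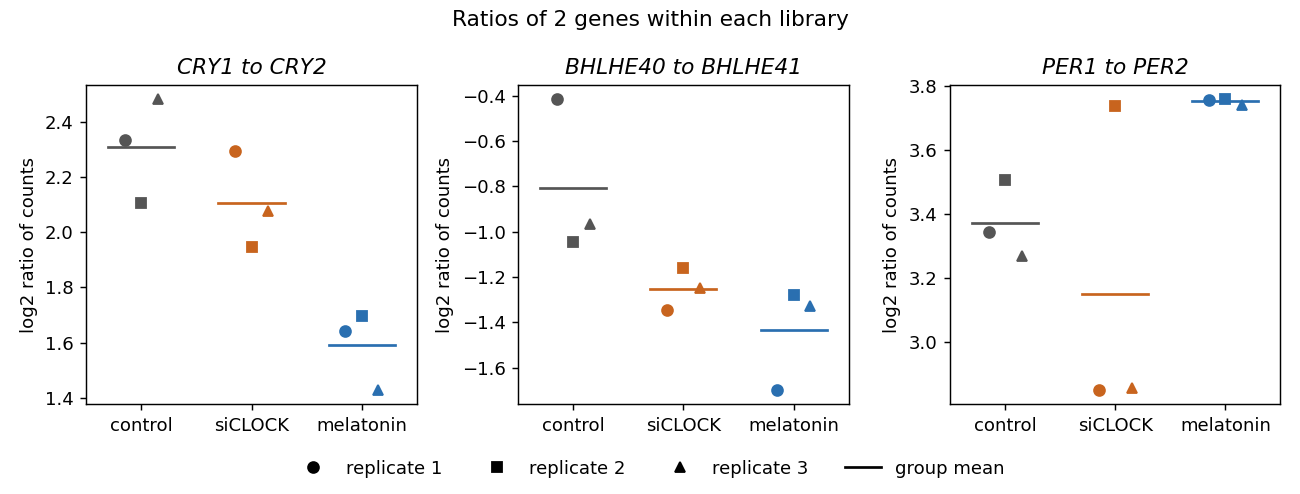
Log2 ratio of the counts of 2 genes within each library by group, the marker shape giving the replicate number and the line the group mean. The CRY1 to CRY2 ratio of all 3 melatonin libraries lies below the other 6, and the PER1 to PER2 ratio spreads most in siCLOCK.

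The activators that the repressors act on were counted next. Of 4 clock activators none passed in siCLOCK, and in melatonin NPAS2, a stand-in for CLOCK, rose by 0.47 (SE 0.083, adjusted p = 4.66e-04) while CLOCK, ARNTL and ARNTL2 did not pass (list median -0.07, with 0.01 over all genes). In siCLOCK NPAS2 stood at 0.38 (adjusted p = 0.0747). Against siCLOCK, melatonin had ARNTL lower (-0.26, adjusted p = 0.0311) and CLOCK higher (0.41, adjusted p = 0.0422). Without siCLOCK replicate 1 neither passed, at -0.22 (adjusted p = 0.0917) and 0.21 (adjusted p = 0.126). Of 7 measured genes of the second clock loop and the D-box factors, DBP, which binds the D-box, fell in melatonin (-0.43, SE 0.12, adjusted p = 0.0153) and the other 6 did not pass (list median -0.04). NR1D2, a repressor of ARNTL, was called higher in melatonin against siCLOCK (0.53, adjusted p = 0.0478) while melatonin stood at 0.02 against control. Its level was 12.8, 25.7 and 30.9 CPM in siCLOCK replicates 1 to 3 and 33.2 to 33.9 CPM in melatonin, and without siCLOCK replicate 1 the difference was 0.24 (adjusted p = 0.0731).

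Enzymes that set the lifetime of PER and CRY proteins went both ways. Of 10 kinases, ligases and deubiquitinases, 2 rose and 2 fell in melatonin and none passed in siCLOCK (list medians 0.11 and -0.02). BTRC (0.40, adjusted p = 0.00131) and FBXW11 (0.18, adjusted p = 0.0461), the F-box proteins that mark phosphorylated PER for destruction, rose. The kinase subunit CSNK2A1 (-0.26, adjusted p = 0.00286) and the deubiquitinase USP2 (-0.40, adjusted p = 0.0331) fell. CSNK1D and CSNK1E, the PER kinases, stood at 0.09 and -0.02 and did not pass.

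Of 12 corepressors reported in PER complexes, 6 fell and 1 rose in melatonin and none passed in siCLOCK (list medians -0.17 and -0.03). The histone methyltransferase SUV39H1 fell by 0.55 (SE 0.11, adjusted p = 0.00137) and the RNA-binding protein SFPQ by 0.29 (adjusted p = 0.00344) on the log2 scale. The other 4 that fell were CHD4, MTA2, WDR5 and TIMELESS.

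Of 7 measured bHLH-Orange relatives of BHLHE40 and BHLHE41, 3 fell in melatonin and none passed in siCLOCK (list medians -0.24 and -0.19). HES1, a Notch target, fell by 0.37 (SE 0.083, adjusted p = 0.00362), HES7 by 0.40 (adjusted p = 0.0225) and HES6 by 0.34 (adjusted p = 0.0286). In siCLOCK against control HES1 stood at -0.00033, HES7 at -0.30 and HES6 at -0.28. Melatonin against siCLOCK gave -0.37 for HES1, -0.10 for HES7 and -0.06 for HES6. All 4 ID genes, whose proteins hold bHLH factors off DNA, rose in melatonin and none passed in siCLOCK (list medians 1.17 and 0.19), ID1 by 0.57 (adjusted p = 6.01e-05), beside ID2 at 1.29, ID3 at 1.30 and ID4 at 1.05.

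Genes that share outside inducers with the repressors were also counted. Of 9 measured early genes responsive to cyclic AMP, an inducer of PER1, 3 rose in melatonin (NR4A2 by 0.99, NR4A3 by 0.90 and CREM) and 2 fell (ATF3 by 0.69 and NR4A1), while FOS stood at 0.0016 (list median 0.04). In siCLOCK against control ATF3 stood at -0.59 (adjusted p = 0.0747) and NR4A1 at -0.33. NR4A2, NR4A3 and CREM stood at 0.22, 0.12 and 0.04 there. Melatonin against siCLOCK gave -0.09 for ATF3 and -0.02 for NR4A1, beside 0.77, 0.78 and 0.37 for NR4A2, NR4A3 and CREM. Of 5 measured glucocorticoid-responsive genes, another input to PER1, SGK1 (-0.38, adjusted p = 0.00476) and TSC22D3 (-0.92, SE 0.32, adjusted p = 0.0471) fell and FKBP5 stood at -0.05 (list median -0.09). TSC22D3 rests on few reads, 13 to 17 counts per library in control and 7 to 9 in melatonin. Of 10 measured hypoxia-inducible genes, a class that includes BHLHE40, 4 fell in melatonin: PDK1 (-0.34), ADM (-0.88), VEGFA (-0.48) and LOX (-0.54), with a list median of -0.27. None of these 3 lists had a gene past the threshold in siCLOCK (list medians -0.16, -0.08 and -0.01). These shares can be read against the 11.0% of all genes that were called higher and 12.1% called lower in melatonin. The list calls in melatonin against control also run across the division by unmapped reads. Their values with a term for that division are not reported here. With the term, 283 of all genes were called higher and 487 lower in that comparison. Of the list genes named here as changed in melatonin against control, DBP, FBXW11, USP2, WDR5, TIMELESS, HES6, HES7, NR4A1, TSC22D3, PDK1 and LOX each missed the threshold without at least 1 of the libraries, with the same sign. HES7 went to -0.26 and ADM to -0.57 without control replicate 1 (adjusted p = 0.160 and 0.0425), and NR4A1 to -0.23 without control replicate 2 (adjusted p = 0.229).

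For the 3 members called in melatonin, the genes with the most similar course over the 9 libraries were sought among 10528 other protein-coding genes with at least 5 CPM, by the root mean square difference of log2 CPM centred on each gene's mean. For PER3 these were SET, a histone chaperone, at 0.028 and C12orf75 at 0.053, where the median gene was at 0.22. For CRY1 they were ARMC6 at 0.085 and DCTPP1, a nucleotide pyrophosphatase, at 0.092, the median gene being at 0.32. For BHLHE40 they were the glycolytic enzyme GPI at 0.095 and the potassium channel KCNH3 at 0.095, the median gene being at 0.28. As the nearest of 10528 genes over 9 libraries, such matches are close by selection, and shared regulation was not tested.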

How the data were processed

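Each library's deposited file gives whole-number counts of reads by gene, not normalized. The submitters' processing notes name STAR 2.7.9a and GRCh38 (hg38). The annotation is not given in the sources used here. All 58721 identifiers matched GENCODE release 29, which supplied symbols, coordinates and exon lengths. The totals of the strand columns had ratios of 1.01 to 1.05, close to even, so the counts regardless of strand were used, and overlapping or antisense genes cannot be separated in them. The 8 genes, the gene lists and the alternatives were chosen with earlier results of these data known.

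After filterByExpr, which left 16441 genes, TMM factors were computed and the 3 group means were estimated in a single quasi-likelihood fit of the 9 libraries (edgeR 4.0.16, R 4.3.3). Benjamini-Hochberg adjustment ran over the 16441 genes, and calls were made under an adjusted p of 0.05. They measure only the spread between these samples, since the labels call the samples independent but name no separate cultures. The SE is the log2 fold change over the square root of F, and 95% intervals use the model's degrees of freedom. On simulated counts of melatonin against control (16441 genes), 70% of the genes set 1.5-fold apart were found, as were 88% of those set 2-fold apart. Unchanged genes made up 13 of 171 calls. Only 100 genes were changed at each size, whereas 23.1% of all genes were called in the data. The largest member change in that comparison, -0.50 for BHLHE40 on the log2 scale, is smaller than 1.5-fold. Recovery at the members' sizes was thus not measured. Ratios and CLOCK used exact permutation tests counting either direction. Library intervals are Wilson intervals.

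Every member was named. Of each of 9 lists (76 symbols), up to 3 called genes with the smallest p were named, and a few further called genes or well-known members were named after their values were seen. Alternatives were DESeq2 1.42.0, limma-voom (limma 3.58.1), other scalings and filters, only the 6 libraries compared, a replicate block, strand columns, a stricter threshold, the unmapped-read term (divided at 1.8%) and each library left out. The sum of the strand columns, and leaving out libraries for the list genes, were added after the data were seen. Some list genes are counted but not reported here by name.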

Additional observations from a re-analysis of the deposited data

How the results depend on the processing

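The count of members called in siCLOCK against control was 0 in each direction in all 22 alternatives (5 members had no adjusted p in DESeq2). In melatonin against control the number of lower members was 0 with the unmapped-read term, 1 to 3 as libraries were left out (1 without control replicate 1), and 4 in the fit of only the 6 libraries compared, where PER2 also passed. The number of higher members was 1 (CRY2) in that fit and 0 to 1 as libraries were left out. In melatonin against siCLOCK the number of lower members was 0 with the unmapped-read term, 2 with no filter on low counts, and 1 to 2 as libraries were left out. CLOCK in siCLOCK ranged from -0.62 to -0.21 over left-out libraries and passed without the library labelled siCLOCK replicate 3 (adjusted p = 0.0179).

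Several values changed sign. With the unmapped-read term PER1, CRY1 and CIART in melatonin against control went to 0.21, 0.023 and 0.015, and CRY2 in melatonin against siCLOCK to 0.19. PER1 in melatonin against control ran from -0.16 to 0.026 over left-out libraries, PER2 in siCLOCK from -0.11 to 0.31, CRY1 in siCLOCK from -0.079 to 0.32, and CRY2 in melatonin against siCLOCK from -0.17 to 0.095. CIART in melatonin against siCLOCK was -0.0022 with DESeq2, -0.0011 with RLE scaling, -0.014 with no filter, -0.074 with first-strand counts, and -0.083 to 0.070 over left-out libraries. The cause was not tested. PER2 has no value under the filter of 5 CPM in 3 libraries.

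Same-numbered libraries did not deviate together (correlations of -0.09 to 0.06, and 1 of 9 libraries correlated best with its own number). With 3 libraries per group this cannot exclude a pairing by number, and the main fit used none. With the replicate block the count of lower members was 3 in melatonin against control and 1 in melatonin against siCLOCK, and genes called over all went from 9 higher and 11 lower to 4 and 8 in siCLOCK. PER2, at 47 to 106 counts per library, has the widest intervals.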
